A study of Homo sapiens with 12 samples.

Results

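The comparison set all drug-treated CCRF-CEM cultures, taken as 1 group, against the untreated cultures, to describe the response that AB61, tubercidin and actinomycin D had in common. All 12 of the 12 arrays entered it: 9 treated arrays (3 with AB61, 3 with tubercidin and 3 with actinomycin D) and 3 untreated arrays. The arrays were chosen from their labels alone. CCRF-CEM is a human T-lymphoblastic leukaemia line. The doses were 250 nM for AB61, 550 nM for tubercidin and 1 nM for actinomycin D, in each case 5 times the compound's IC50, and exposure lasted 3 h. The untreated cultures shared the same line, and no vehicle was described for them. Replicates were titled as biological replicates. Molar doses differed between compounds, so "matched" here means the same multiple of the IC50 and the same time.

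Tubercidin is 7-deazaadenosine, an adenosine analog that cells phosphorylate and can build into RNA, and AB61 is its derivative with a 2-thienyl group at position 7. Actinomycin D binds DNA and blocks transcription, at low doses chiefly that of ribosomal RNA genes. An mRNA with a short half-life falls quickly when its synthesis stops, and many immediate early genes, which signals switch on within minutes, make such mRNAs. The arrays measured the standing level of each mRNA and not its synthesis or decay.

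Levels are given as the deposited log2 values made by robust multi-array averaging (RMA), and 14232 genes were tested with limma. A gene is called where its Benjamini-Hochberg adjusted p over all genes was under 0.05, and it "does not overlap" where all 9 treated arrays lay on one side of all 3 untreated arrays. The median level per array was between 6.58 and 6.72, and arrays correlated with each other at 0.983 to 0.996 across genes. RMA gives all arrays like distributions, so a loss of mRNA shared by most genes could not be seen in these values. Fewer cells of a kind and less RNA per cell cannot be told apart in such bulk RNA. Of the 15 T lineage markers measured, 1 was called higher (CD3G) and none lower. None of the 6 B lineage, 5 myeloid, 3 erythroid and 8 epithelial or stromal markers was called in either direction. Over all genes 2.08% were called, so lists this short would hold few calls in any case.

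Treatment was followed by lower levels of FOSL2, NR4A1, EGR1, the G-protein regulators RGS1 and RGS2, and the glycolytic genes PFKFB3, PFKFB4 and ENO2. Higher levels were found for CHRNA6, SERPINB8, the cytokine receptor IL7R and the chemokine receptor ACKR3. In all, 296 of 14232 genes were called (2.08%), 167 of them higher (1.17%) and 129 lower (0.906%) in treated cultures. Most changes were small: the median of the called genes was 0.48 among those higher and -0.52 among those lower, on the log2 scale. Only 3 genes were at least 2-fold higher (ACKR3, CHRNA6 and IL7R) and 7 at least 2-fold lower (EGR1, NR4A1, RGS1, FOSL2, RGS2, PFKFB4 and ENO2). The median change over all genes was 0.01, and the median standard error (SE) of a change was 0.11. Groups did not overlap for 256 of the called genes (1.80% of all tested). The 15 largest changes named in each direction were picked for lack of overlap, so for those genes it follows from that rule. Whether called or not, 375 genes (2.63%) had all 9 treated arrays above all 3 untreated arrays and 270 (1.90%) had them below.

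**Figure D1:**
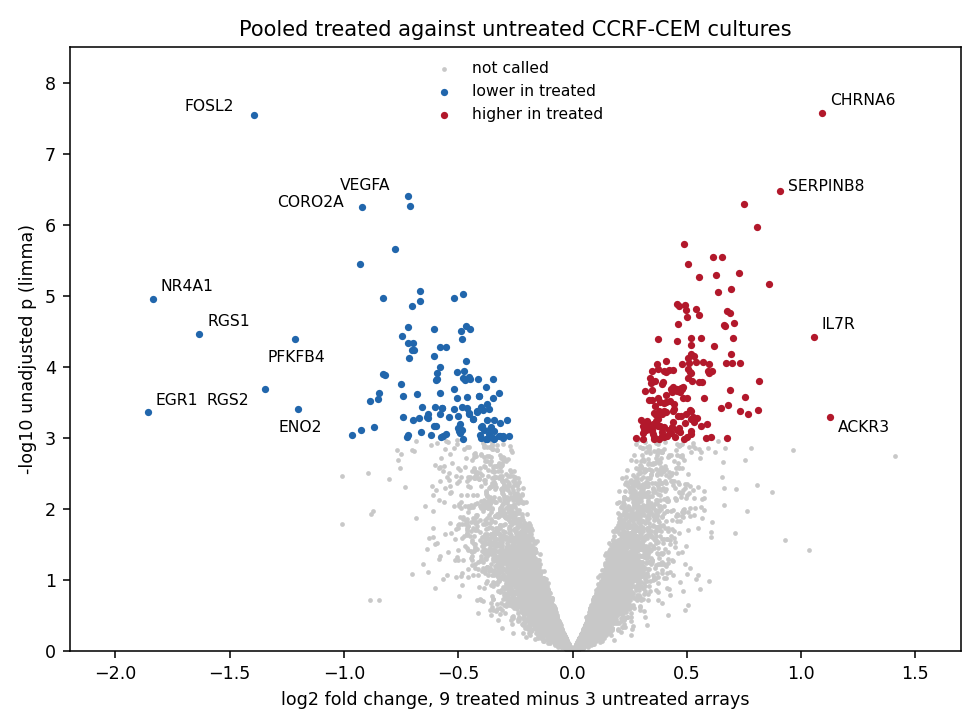
Each point is 1 of 14232 genes, with the log2 fold change of the 9 treated over the 3 untreated arrays on the x axis and the unadjusted limma p, as its negative log10, on the y axis. The 129 genes called lower reach -1.86 (EGR1), the 167 called higher reach 1.13 (ACKR3), and FOSL2 and CHRNA6 have the lowest p on their side.

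The count rested heavily on the untreated arrays, of which there were only 3. Without untreated replicate 1, 239 genes were called, without untreated replicate 2 only 27, and without untreated replicate 3 only 30. Of the treated arrays, leaving out actinomycin D replicate 2 left 146 calls, tubercidin replicate 1 left 188, tubercidin replicate 3 left 168, and leaving out tubercidin replicate 2 gave 435. The main fit left the replicate numbers out. With the replicate number as a block, which treats same-numbered cultures as a set, 729 genes were called, among them all 296. Of 61 called genes named by rule, 49 stayed called without untreated replicate 1, 15 without untreated replicate 2 and 13 without untreated replicate 3. The direction of all 296 was kept under each of the alternatives run, though the call was not, except that the filters on dim genes tested only 279 and 221 of them. Of the 98 genes named by rule, 12 were called in every alternative that tested them except the Bonferroni adjustment. MBD5 and ZNF583 were too dim to enter the stricter filter. The 12 were FOSL2, NR4A1, PFKFB3, VEGFA, CORO2A and MBD5 among the lower, and CHRNA6, SERPINB8, CMAHP, PDE7A, ZNF583 and DCP1B among the higher.

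**Figure D2:**
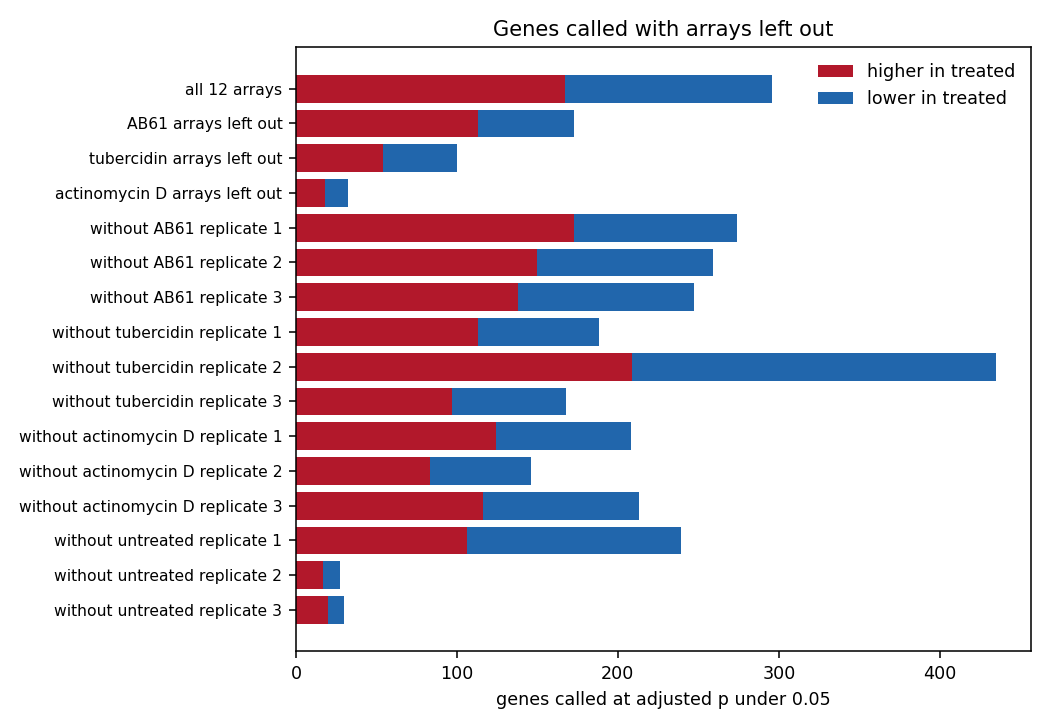
Bars give the number of genes called (x axis), split into higher and lower in treated cultures, with all 12 arrays and with each compound's 3 arrays or each single array left out (y axis). The shortest bars are those without untreated replicate 2 (27 genes), without untreated replicate 3 (30 genes) and without the actinomycin D arrays (32 genes).

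To let a reader see the sequence in front of genes that stayed called, 3 promoters are printed: FOSL2 and PFKFB3 from the lower side and SERPINB8 from the higher side. Each is the 250 bases before the gene's start in the RefSeq promoter table (GRCh38.p14), 5′ to 3′ on the gene's strand, which was the plus strand for all of them. They lie at chr2:28392608-28392857 (FOSL2), chr10:6144671-6144920 (PFKFB3) and chr18:63969831-63970080 (SERPINB8). Capitals mark matches, on either strand, to the CRE core TGACGT, the GC box GGGCGG, the AP-1 motif TGANTCA, the CCAAT box and the TATA box TATAAA.
FOSL2: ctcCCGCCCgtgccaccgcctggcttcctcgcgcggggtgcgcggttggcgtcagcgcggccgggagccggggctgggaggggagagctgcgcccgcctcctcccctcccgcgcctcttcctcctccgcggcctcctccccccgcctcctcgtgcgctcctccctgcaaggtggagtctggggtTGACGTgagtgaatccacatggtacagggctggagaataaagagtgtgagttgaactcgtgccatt
PFKFB3: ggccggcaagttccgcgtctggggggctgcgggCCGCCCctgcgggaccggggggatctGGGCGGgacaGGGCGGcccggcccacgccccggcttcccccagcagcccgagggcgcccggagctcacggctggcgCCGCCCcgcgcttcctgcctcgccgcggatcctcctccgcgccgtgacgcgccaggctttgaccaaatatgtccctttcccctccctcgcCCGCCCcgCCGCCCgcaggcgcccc
SERPINB8: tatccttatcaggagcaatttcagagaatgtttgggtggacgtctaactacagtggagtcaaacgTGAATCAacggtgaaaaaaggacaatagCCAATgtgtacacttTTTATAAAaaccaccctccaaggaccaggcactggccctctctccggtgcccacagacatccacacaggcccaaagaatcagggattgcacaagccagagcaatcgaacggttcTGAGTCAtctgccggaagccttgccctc
Of the other promoters looked at in the same way, those of NR4A1 and ZNF583 held none of the marked motifs and that of DCP1B held 1 GC box, and the 3 above were printed for the motifs they hold. FOSL2 holds the CRE core 66 bases before its start, PFKFB3 holds 6 GC boxes, and SERPINB8 holds 2 AP-1 motifs, 185 and 28 bases before its start.

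Promoters were found for 11385 of the genes tested, 240 of them called. The CRE core was present in 13.6% of the promoters of genes called lower and 8.03% of those called higher, against 8.96% of all promoters. The full CRE TGACGTCA, every match of which holds the core, was present in 0.971% of the promoters of genes called lower and 1.46% of those called higher, against 2.48% of all. The GC box was present in 72.8% of promoters of genes called lower and 59.9% of those called higher, against 58.4% of all. The AP-1 motif, bound by the FOS and JUN families, was present in 1.94% of promoters of genes called lower and 8.03% of those called higher, against 4.74% of all. These counts were 2 of 103 and 11 of 137 promoters. The E-box CACGTG was in 12.6% of lower and 10.2% of higher promoters, against 7.96% of all, and the TATA box in 10.7% and 5.84%, against 8.21%. The CCAAT box was in 43.7% and 42.3%, against 34.7%. A match is a description of letters and not of a bound site.

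Transcription regulators of the AP-1, EGR and NR4A families were among the lower genes. FOSL2, a FOS-family subunit of the AP-1 factor, had levels of 7.62 to 8.03 with a median of 7.93 on the 9 treated arrays, against 8.83, 9.44 and 9.58 on the untreated arrays. The groups were 0.80 apart at their nearest arrays. FOSL2 fell by 1.39 on the log2 scale (SE 0.13, 2.62-fold lower, limma adjusted p = 0.000199). NR4A1, an orphan nuclear receptor induced by T cell receptor signals, had levels of 6.55 to 7.13 with a median of 6.79 on treated arrays, against 7.72, 8.57 and 9.79 untreated. The treated arrays lay close together and the untreated arrays lay far apart, with replicate 1 lowest and replicate 3 highest. NR4A1 was 3.57-fold lower (log2 -1.84, SE 0.28, limma adjusted p = 0.00626). EGR1, a zinc finger factor of the immediate early class, showed the same spread more strongly. It had levels of 6.78 to 7.43 with a median of 7.24 on treated arrays, against 7.49, 8.85 and 10.69 untreated. EGR1 was 3.63-fold lower (log2 -1.86, SE 0.41, limma adjusted p = 0.0334), the largest change of any called gene, but untreated replicate 1 was only just above the treated arrays. Without untreated replicate 3 the EGR1 change was -1.02 (adjusted p = 0.0991), and without untreated replicate 2 it was -1.94 (adjusted p = 0.121).

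Further AP-1 genes followed. FOSB, another FOS-family subunit, had levels of 6.69 to 7.16 with a median of 6.80 on treated arrays, against 7.04, 7.85 and 8.24 untreated. Untreated replicate 1 overlapped the treated arrays, and the change was -0.85 (SE 0.18, limma adjusted p = 0.0245). ATF3, a stress-induced partner of AP-1 subunits, had levels of 6.69 to 7.33 with a median of 7.03, against 7.58, 7.94 and 8.08 untreated. Its groups did not overlap, and it was 1.78-fold lower (limma adjusted p = 0.00626). Of the 15 AP-1 subunits measured, these 3 were called lower and none higher, beside 0.906% called lower among all genes, and the list's median was -0.21. FOS changed by -0.40 (limma adjusted p = 0.0896, and 0.0365 with the replicate block), JUNB by -0.60 (adjusted p = 0.111) and JUN by -0.23 (adjusted p = 0.326). Without untreated replicate 2 the adjusted p was 0.142 for FOSB and 0.0552 for ATF3, and without untreated replicate 3 it was 0.130 and 0.0605, so only 1 AP-1 gene was called in either case.

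Among 20 immediate early and short-lived regulators, 4 were called lower and none higher, beside 0.906% lower among all genes. Their median was -0.35, against 0.01 for all genes tested. With the replicate block 6 were lower, and without untreated replicate 2 or 3 only 1 was. Beside EGR1 and NR4A1, EGR3, a relative of EGR1, had levels of 5.38 to 5.87 with a median of 5.55 on treated arrays, against 5.74, 6.49 and 7.17 untreated. EGR3 overlapped at untreated replicate 1 and changed by -0.87 (limma adjusted p = 0.0420). Without untreated replicate 3 the EGR3 change was -0.52 (adjusted p = 0.184), and without untreated replicate 2 the adjusted p was 0.171. PIM1, a kinase whose mRNA turns over fast, was lower by a smaller amount, at -0.32 (limma adjusted p = 0.0489). It lost its call without any 1 of the 3 untreated arrays (adjusted p between 0.0658 and 0.208). IER2 and IER3, small proteins induced by growth signals, were not called, at -0.38 (limma adjusted p = 0.122) and 0.00 (adjusted p = 1.00). None of 13 MAPK feedback inhibitors was called, beside 2.08% of all genes. The largest change there was that of SPRY2, an inhibitor of receptor kinase signals, at -0.32 (adjusted p = 0.388).

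**Figure D3:**
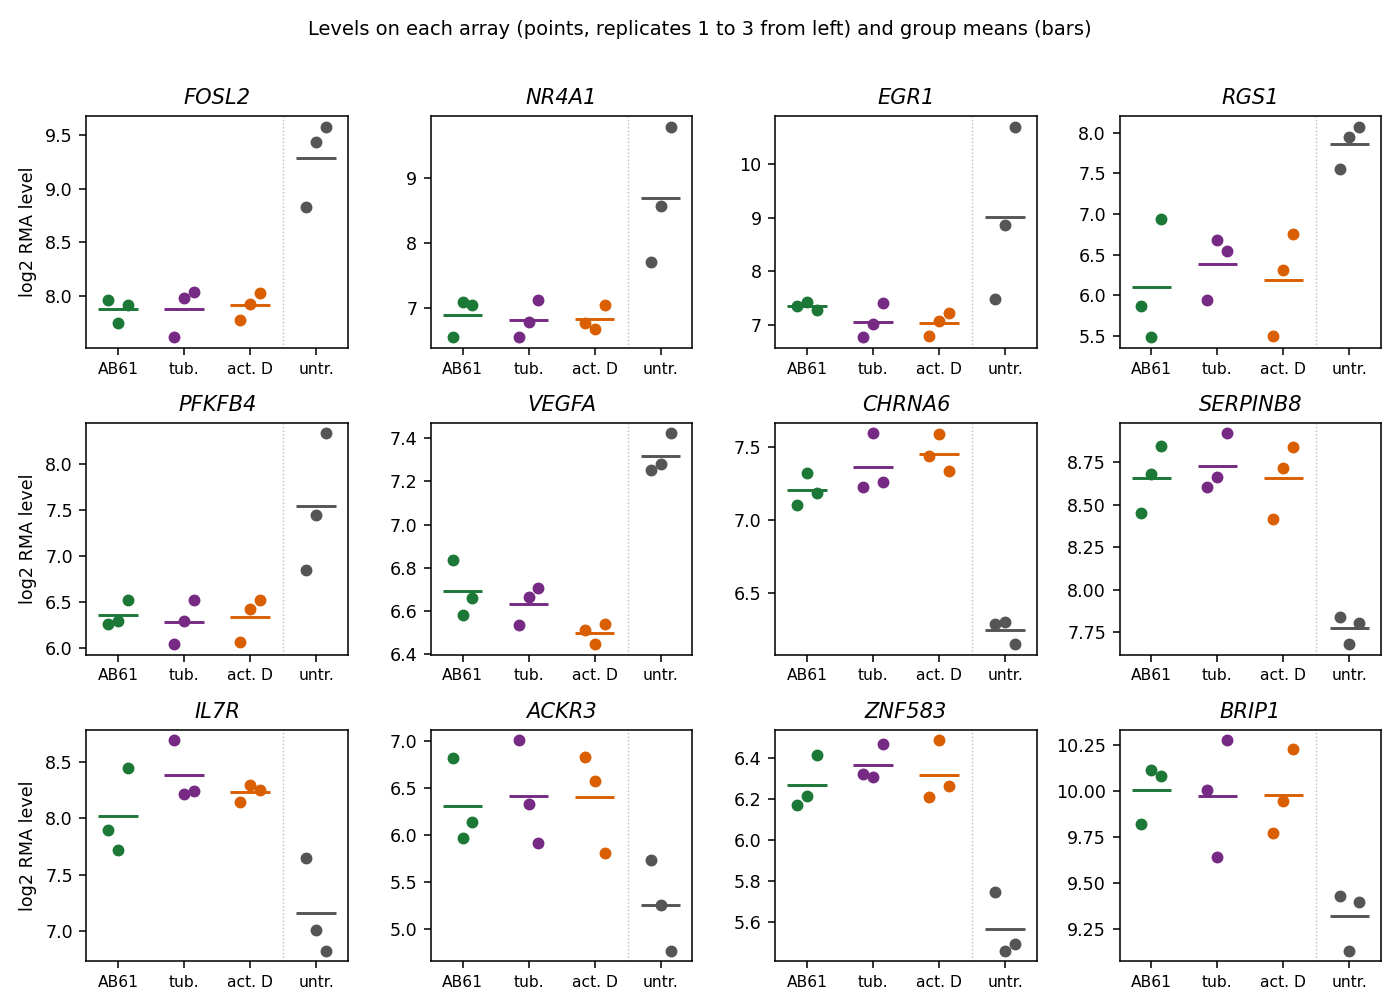
Log2 RMA levels (y axis) of 12 called genes on each array, with AB61, tubercidin (tub.), actinomycin D (act. D) and untreated (untr.) arrays from left to right, points in replicate order and bars at the group means. In each panel all 9 treated arrays lie on one side of the 3 untreated arrays. Genes named as the largest changes were picked for lack of overlap, so nothing is read from it there. For EGR1 and NR4A1 the untreated arrays are spread far more widely than the treated ones.

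Regulators from other lists were also called lower. HEXIM1, which holds the elongation kinase P-TEFb in an inactive complex, had levels of 7.51 to 8.12 with a median of 7.76 on treated arrays, against 8.28, 8.41 and 8.64 untreated. The groups did not overlap, and HEXIM1 was 1.65-fold lower (limma adjusted p = 0.0114, but 0.0636 without untreated replicate 2 and 0.0780 without untreated replicate 3). It was the only one of 15 P-TEFb and elongation genes called, beside 0.906% called lower among all genes. ID1, an inhibitor of basic helix-loop-helix factors, changed by -0.58 (limma adjusted p = 0.0245), and CEBPB, a leucine zipper factor, by -0.52 (adjusted p = 0.00626). The clock genes PER1 and BHLHE40 were called lower, at -0.71 (limma adjusted p = 0.0153) and -0.93 (adjusted p = 0.0441). They were the only 2 of 14 clock genes called, beside 0.906% called lower among all genes. BHLHE40 overlapped at 1 untreated array, and without untreated replicate 3 it changed by -0.56 (adjusted p = 0.198). Of 24 regulators chosen for naming with earlier results of these data known, 23 were measured. Of those, 10 were called lower and none higher, beside 0.906% and 1.17% of all genes. Without untreated replicate 2 the count lower was 4, and without untreated replicate 3 it was 3. MCL1 was not among the regulators with a probe set of its own. HES1, a NOTCH target, changed by -0.13 (limma adjusted p = 0.837), CDKN1A, the p53-induced cell cycle inhibitor, by -0.12 (adjusted p = 0.677), and NFKBIA, the NF-kB inhibitor, by -0.09 (adjusted p = 0.908). BCL2, the apoptosis inhibitor, changed by -0.22 (adjusted p = 0.338). MDM2, the p53 inhibitor, changed by 0.37 (adjusted p = 0.154, and 0.0203 with the replicate block).

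Among genes of G-protein signalling, RGS1 and RGS2 stood among the largest decreases. RGS1, which ends signals of chemokine receptors, had levels of 5.48 to 6.94 with a median of 6.31 on treated arrays, against 7.55, 7.95 and 8.07 untreated. All treated arrays were below all untreated ones, and RGS1 was 3.10-fold lower (log2 -1.63, SE 0.28, limma adjusted p = 0.0106). RGS2, a regulator of the Gq class, had levels of 6.62 to 7.88 with a median of 7.34, against 7.89, 8.95 and 9.13 untreated. The highest treated and the lowest untreated array were nearly level, and RGS2 was 2.54-fold lower (limma adjusted p = 0.0231). CXCR4, the receptor for the chemokine CXCL12, had levels of 10.27 to 10.78 with a median of 10.58, against 10.98, 11.32 and 11.55 untreated, and was 1.65-fold lower (adjusted p = 0.00911). S1PR1, the sphingosine phosphate receptor that guides T cells out of lymphoid tissue, changed by -0.66 with overlap at 1 untreated array (adjusted p = 0.0319). None of these 4 genes was called without untreated replicate 2 or without untreated replicate 3. The adjusted p without replicate 2 was 0.0678 for RGS1, 0.143 for RGS2, 0.0636 for CXCR4 and 0.156 for S1PR1.

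The scavenging CXCL12 receptor ACKR3 was higher in treated cultures. It had levels of 5.81 to 7.01 with a median of 6.33 on treated arrays, against 5.73, 5.25 and 4.77 untreated. The lowest treated array was 0.08 above the highest untreated one, and ACKR3 was 2.18-fold higher (log2 1.13, SE 0.25, limma adjusted p = 0.0356). Without untreated replicate 2 the adjusted p for ACKR3 was 0.145, and without untreated replicate 3 it was 0.175. Of the 18 genes listed as RGS regulators and chemokine or related receptors, 5 were called lower and 1 higher, beside 0.906% and 1.17% of all genes, with a median of -0.02 (0.05 when arrays were centred on ribosomal protein genes). ACKR3 is not on this list. Beside the 4 lower genes above, RGS16 was called at -0.60 (limma adjusted p = 0.0202), and the 1 called higher was the prostaglandin receptor PTGDR at 0.55 (adjusted p = 0.00749), both named after their values were seen. Without untreated replicate 2 none of the 18 was called, and without untreated replicate 3 1 was called lower.

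Some genes of glycolysis and of the hypoxia response were called lower. PFKFB4, which makes the activator of phosphofructokinase, had levels of 6.05 to 6.52 with a median of 6.29 on treated arrays, against 6.85, 7.45 and 8.34 untreated. The groups did not overlap, and PFKFB4 was 2.32-fold lower (log2 -1.22, SE 0.21, limma adjusted p = 0.0107). PFKFB3, an enzyme of the same family, had levels of 7.57 to 7.95 with a median of 7.83, against 8.32, 8.77 and 9.17 untreated, and was 1.91-fold lower (adjusted p = 0.00363). ENO2, an enolase, had levels of 7.91 to 8.84 with a median of 8.33, against 8.85, 9.46 and 10.55 untreated. Its highest treated and lowest untreated arrays were 0.01 apart, and ENO2 was 2.30-fold lower (limma adjusted p = 0.0319). VEGFA, the vascular growth factor, had levels of 6.45 to 6.83 with a median of 6.58, against 7.26, 7.28 and 7.42 untreated. Its untreated arrays lay close together, unlike those of EGR1, and VEGFA was 1.64-fold lower (log2 -0.71, SE 0.09, limma adjusted p = 0.00115).

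Of 25 genes of glycolysis and hypoxia measured, 6 were called lower and none higher, beside 0.906% called lower among all genes. All 25 values lay below 0, with a median of -0.25. When arrays were centred on ribosomal protein genes, 5 of the 25 lay above 0 and the median was -0.18. The other called members were HK1 at -0.48 (limma adjusted p = 0.0319) and PFKP at -0.40 (adjusted p = 0.0497), named after their values were seen. They encode the enzymes of the first and the third step of glycolysis. Without untreated replicate 2 or without untreated replicate 3, only PFKFB3 and VEGFA were called lower, and with the replicate block 8 members were. Without untreated replicate 3 the adjusted p was 0.0509 for PFKFB4, and ENO2 changed by -0.74 (adjusted p = 0.138).

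Stress-response genes were lower in part. HERPUD1, a membrane protein of endoplasmic reticulum (ER) protein degradation, had levels of 8.78 to 9.78 with a median of 9.41 on treated arrays, against 9.89, 10.21 and 10.75 untreated. The groups did not overlap, and HERPUD1 was 1.85-fold lower (limma adjusted p = 0.0281). DNAJB9, an ER co-chaperone, changed by -0.52 (limma adjusted p = 0.0321), and XBP1, a factor of the unfolded protein response, by -0.39 (adjusted p = 0.0441). These were the 3 called of 17 ER genes, beside 0.906% called lower among all genes, and the list's median was -0.13. Without untreated replicate 2 or 3, none of the 17 was called. DDIT4, an inhibitor of the growth kinase mTORC1, had levels of 7.26 to 8.40 with a median of 7.71, against 8.35, 8.81 and 9.03 untreated. One treated array, tubercidin replicate 2, lay just above untreated replicate 1, and DDIT4 was 1.95-fold lower (limma adjusted p = 0.0487). CTH, which makes cysteine, changed by -0.63 (adjusted p = 0.0340).

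Of 19 ATF4 targets, DDIT4, CTH and CEBPB were called lower and none was called higher, beside 0.906% lower among all genes, with a median of -0.17. With the replicate block 6 were lower and 1 was higher. Without untreated replicate 2 only CEBPB was called, and without untreated replicate 3 none was. DDIT3, a proapoptotic ATF4 target, changed by -0.29 (limma adjusted p = 0.657). Among amino acid transporter genes, calls were in the higher direction. SLC7A5 and SLC3A2, the 2 chains of the leucine carrier LAT1, were higher by 0.35 (limma adjusted p = 0.0400) and 0.40 (adjusted p = 0.0292). They were the only 2 of 10 transporters called, beside 1.17% called higher among all genes, with a list median of 0.21. SLC7A5 had levels of 10.71 to 11.05 with a median of 10.94 on treated arrays, against 10.54, 10.69 and 10.50 untreated. No transporter was called without untreated replicate 1 or without untreated replicate 2, and 4 were higher and 1 lower with the replicate block.

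On the higher side, CHRNA6, a nicotinic acetylcholine receptor subunit, had the lowest p. Its levels were 7.10 to 7.59 with a median of 7.32 on treated arrays, against 6.29, 6.30 and 6.15 untreated. The groups were far apart for their spread, and CHRNA6 was 2.13-fold higher (log2 1.09, SE 0.10, limma adjusted p = 0.000199). SERPINB8, an inhibitor of serine proteases, had levels of 8.42 to 8.92 with a median of 8.68 on treated arrays, against 7.84, 7.68 and 7.80 untreated. It was 1.88-fold higher without overlap (log2 0.91, SE 0.10, limma adjusted p = 0.00115). IL7R, the interleukin 7 receptor chain on which T cell survival depends, had levels of 7.72 to 8.69 with a median of 8.25, against 7.64, 7.01 and 6.82 untreated. The lowest treated array was 0.08 above untreated replicate 1, and IL7R was 2.08-fold higher (log2 1.05, SE 0.18, limma adjusted p = 0.0107). IL18RAP, an accessory chain of the interleukin 18 receptor, was 1.76-fold higher (adjusted p = 0.0202), with 5.50 to 6.33 on treated arrays, against 4.89, 5.10 and 5.06 untreated. The adjusted p for IL7R was 0.0747 without untreated replicate 2 and 0.0755 without untreated replicate 3, and IL18RAP lost its call without any 1 of the 3 untreated arrays (adjusted p between 0.0752 and 0.0833).

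Other genes among the 15 largest called increases without overlap were of mixed roles, and their lack of overlap follows from that rule. CMAHP, a pseudogene that humans keep of a sialic acid hydroxylase, had levels of 7.62 to 8.09 with a median of 7.81 on treated arrays, against 7.10, 7.01 and 7.10 untreated. It was 1.75-fold higher (limma adjusted p = 0.00191). PDE7A, a cyclic AMP phosphodiesterase, had levels of 8.90 to 9.35 with a median of 9.17, against 8.56, 8.22 and 8.54 untreated, and was 1.66-fold higher (adjusted p = 0.00444). CNGA1, a cyclic nucleotide-gated channel, changed by 0.86 (adjusted p = 0.00535). TPH1, a tryptophan hydroxylase, changed by 0.73 (adjusted p = 0.0162). TMEM71, HCG8, TEX9 and KCNRG had changes between 0.71 and 0.77, and ZNF583 and ZNF287 are given below. TPH1, TMEM71 and HCG8 each lost their call without any 1 of the 3 untreated arrays (limma adjusted p between 0.0605 and 0.156). NHLRC2 was called at 0.81 (adjusted p = 0.0328) but overlapped, so it is not among the 15. DCP1B, a cofactor of mRNA decapping, had levels of 7.21 to 7.65 with a median of 7.49, against 6.90, 6.87 and 6.77 untreated. It was 1.55-fold higher (limma adjusted p = 0.00444). DCP1B was the only one of 45 mRNA decay genes called, beside 1.17% called higher among all genes. Nothing is read about that list as a whole.

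The zinc finger genes with 3-digit ZNF names, a large family of mostly repressive DNA-binding proteins, gave 11 genes higher and 1 lower of 252 measured. Over all genes, 1.17% were called higher and 0.906% lower. The list's median was 0.06, and 166 of the 252 were above 0. The direction of the median held in each rescaling of the arrays, between 0.04 and 0.13. ZNF583 had levels of 6.17 to 6.49 with a median of 6.31 on treated arrays, against 5.75, 5.46 and 5.50 untreated, and was 1.68-fold higher (limma adjusted p = 0.00115). ZNF287 was 1.63-fold higher (adjusted p = 0.0107) and ZNF623 was higher by 0.67 (adjusted p = 0.00709). ZNF367, a regulator of cell cycle genes, was the one lower, at -0.45 (adjusted p = 0.0200). The count of higher genes was 23 with the replicate block, 6 without untreated replicate 1, 2 without untreated replicate 2 and 1 without untreated replicate 3.

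Of 25 genes of homologous recombination and the Fanconi anaemia pathway, 3 were called higher and 1 lower, beside 1.17% and 0.906% of all genes, with a median of 0.09. BRIP1, the BRCA1-bound helicase, had levels of 9.64 to 10.28 with a median of 10.01 on treated arrays, against 9.43, 9.13 and 9.40 untreated. It was 1.59-fold higher (limma adjusted p = 0.0162). FANCF, of the Fanconi core complex, was 1.61-fold higher (adjusted p = 0.00714), and PALB2, which links BRCA1 to BRCA2, was 1.35-fold higher (adjusted p = 0.0231). The members did not all move one way. None of the 25 was called without untreated replicate 2 or without untreated replicate 3. PLK1, a mitotic kinase, was higher by 0.35 (limma adjusted p = 0.0177). It was the only one of 24 mitosis genes called, beside 1.17% called higher among all genes. BIRC5, which serves both mitosis and the block of apoptosis, was higher by 0.38 (adjusted p = 0.0417). CD3G, a chain of the T cell receptor complex, was higher by 0.37 (adjusted p = 0.0413). It lost its call without any 1 of the 3 untreated arrays (adjusted p between 0.0886 and 0.193).

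Large families of the transcription, translation and respiration machinery had few or no calls. Over all genes 2.08% were called, so lists of this size would hold few calls in any case. Nothing is read from a list without a call. None of 37 RNA polymerase II and Mediator genes was called (median -0.03), nor any of the 29 listed genes of RNA polymerase I and ribosome biogenesis (median 0.02). The lists are not complete. UTP4 and NOL9, ribosome biogenesis genes outside the list and named after their values were seen, were called higher. UTP4 changed by 0.61 with overlap (limma adjusted p = 0.0489). POLR1B, a polymerase I subunit, changed by 0.64 (limma adjusted p = 0.0518, and 0.00576 with the replicate block). None of 30 cytosolic ribosomal protein genes (median -0.12), 65 mitochondrial ribosomal protein genes (-0.09) or 57 respiratory chain genes (-0.14) was called. Neither was any of the 20 listed p53 targets (-0.08), 34 DNA replication genes (-0.01), 29 proteasome genes (-0.01), 17 genes of adenosine uptake and metabolism (0.01) or 14 NF-kB genes (-0.03). Among 49 histone genes of the replication-dependent kind, H3C1 was called lower (-0.63, limma adjusted p = 0.0359) and 42 lay below 0, with a median of -0.19. Over all genes 0.906% were called lower. H3C1 lost its call without any 1 of the 3 untreated arrays (adjusted p between 0.102 and 0.136). No heat shock gene of 15 was called (median -0.23), and HSPE1, the mitochondrial co-chaperonin, changed by -0.58 (adjusted p = 0.0801, and 0.0301 with the replicate block). RPL27A, a ribosomal protein gene, changed by 0.58 without overlap (adjusted p = 0.126, and 0.0250 with the replicate block).

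With the replicate block, under which 729 of 14232 genes were called, lists without a call gained some. They were heat shock genes (3 lower), polymerase I genes (3 higher), polymerase II and Mediator genes (2 higher and 1 lower), cytosolic ribosomal proteins (2 higher), NF-kB genes (2 lower) and p53 targets (1 higher and 2 lower). Mitochondrial ribosomal proteins and NOTCH pathway genes gained 1 lower gene each, spliceosome and hnRNP genes, proteasome genes and arrestin-domain genes 1 higher gene each, and B lineage markers 1 lower gene (CD79B, adjusted p = 0.0289 in that fit). The histone, P-TEFb and SR factor lists each had 2 genes lower in place of 1, mitosis and T lineage genes 2 higher in place of 1, and mRNA decay genes 2 higher and 2 lower.

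The largest called decreases without overlap also took in genes outside these families, and their lack of overlap follows from that rule. CORO2A, an actin-binding coronin, had levels of 7.05 to 7.36 with a median of 7.18 on treated arrays, against 7.83, 8.07 and 8.48 untreated, and was 1.89-fold lower (limma adjusted p = 0.00115). MBD5, which carries a methyl-CpG-binding domain, had levels of 5.89 to 6.44 with a median of 6.21, against 6.92, 6.87 and 7.14 untreated, and stood 1.71-fold lower (adjusted p = 0.00312). CD55, which protects cells from complement, changed by -0.85 (adjusted p = 0.0267). ANKZF1, of ribosome-associated quality control, and GKAP1, a partner of a cyclic GMP kinase, were 1.68-fold lower each (adjusted p = 0.0107 and 0.0212). INSIG1, which holds back sterol synthesis, was the only one of 16 cholesterol genes called, at -0.54 (adjusted p = 0.0356). OAS1, an antiviral enzyme, was the only one of the 21 listed interferon-stimulated genes called, at -0.45 (adjusted p = 0.0199). SRSF4 was the only one of 15 SR splicing factors and their kinases, at -0.37 (adjusted p = 0.0319). The medians of these lists were -0.11, 0.01 and -0.15. Over all genes 0.906% were called lower, and nothing is read from 1 call in a list of this size. INSIG1 and SRSF4 lost their calls without any 1 of the 3 untreated arrays (adjusted p between 0.0662 and 0.172). BST2, an interferon-induced gene outside the list and named after its value was seen, was also called lower, at -0.61 with overlap (adjusted p = 0.0417). None of 36 hnRNP and spliceosome genes, 18 aminoacyl-tRNA synthetases, 14 NOTCH pathway genes or 8 arrestin-domain genes was called, with medians of -0.10, -0.10, -0.07 and 0.07. With 2.08% of all genes called, nothing is read from the lack of calls in these lists. RUNX3, a T cell factor of the NOTCH list, changed by -0.33 (adjusted p = 0.0919, and 0.0410 with the replicate block), and ARRDC3, an arrestin-domain gene, by 0.65 (adjusted p = 0.0919, and 0.0103 with the block).

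**Figure D4:**
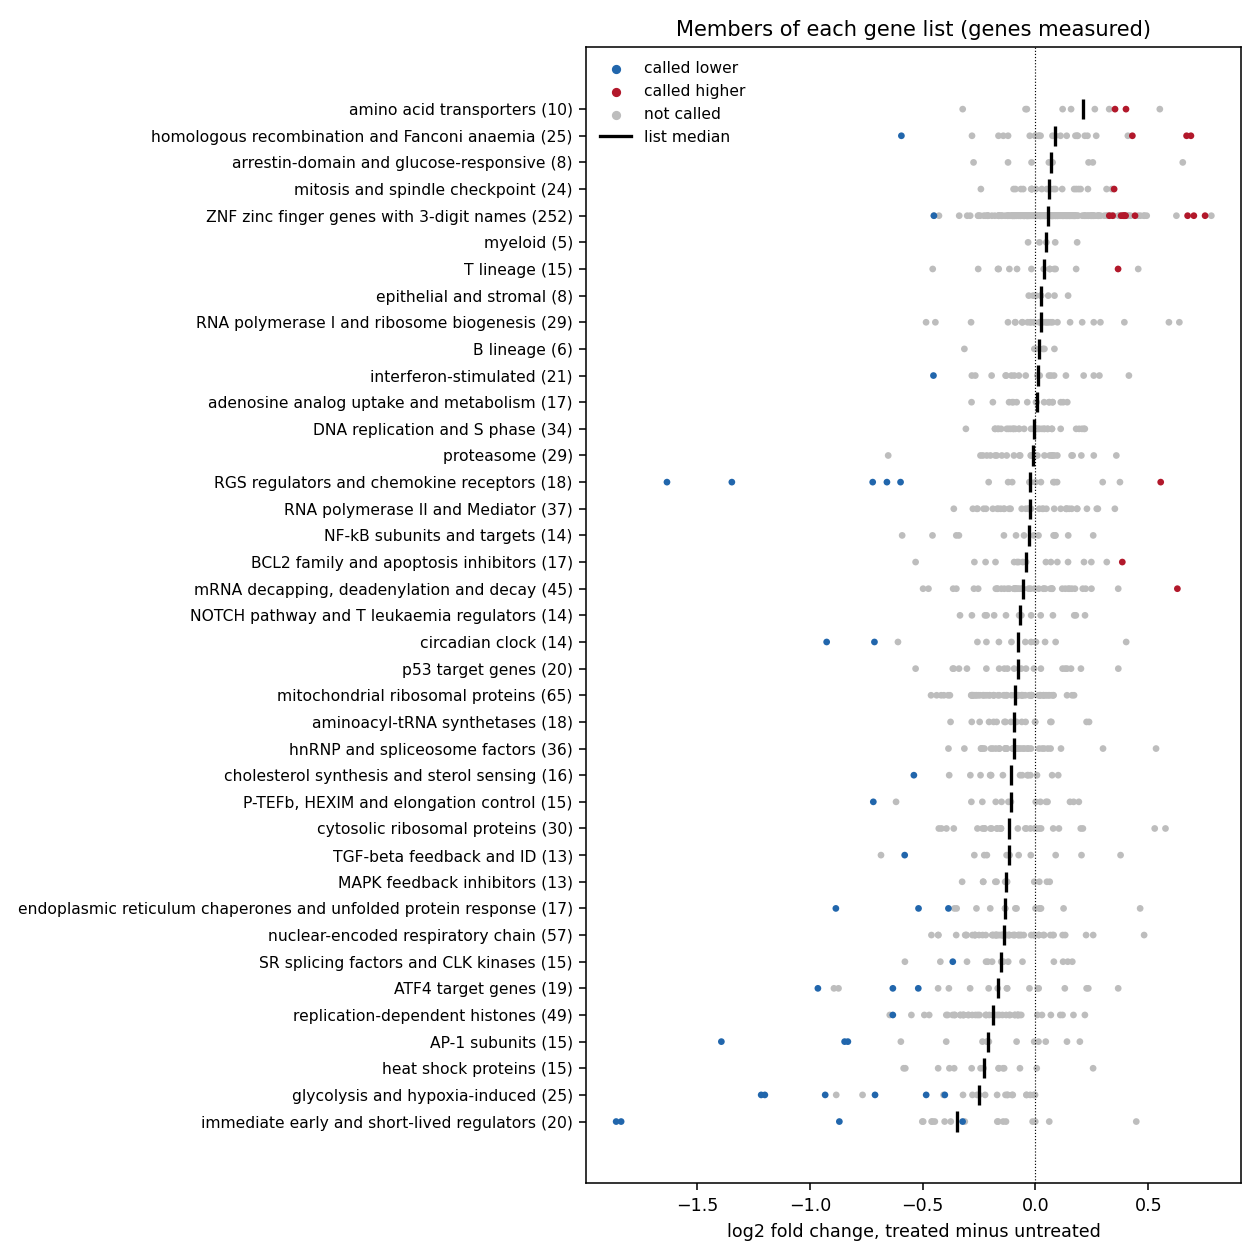
Each row is 1 gene list of at least 5 measured genes, with the number measured in brackets, and each point is a gene at its log2 fold change of treated over untreated arrays (x axis). Colours mark genes called lower or higher, and the bar is the list's median, which runs from -0.35 for immediate early regulators to 0.21 for amino acid transporters.

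The 3 compounds were then compared with one another. No gene passed the test among AB61, tubercidin and actinomycin D: the F test over the 3 groups had a lowest adjusted p of 0.869, and 327 genes (2.30%) were at an unadjusted p under 0.05. With the replicate block the lowest adjusted p was 0.0902 and 4.31% of genes were at that unadjusted level, and again none passed. Of the 296 genes called in the pooled comparison, 4 were at that level in the fit without the block (1.35%). The pooled fit counts spread between compounds as error, so nothing is read from this share. The 3 pairs of compounds gave 42696 direct tests, and none passed (lowest adjusted p = 1.00). With array weights from limma's gene-by-gene method, chosen after the data were seen, 9 genes passed the F test, CHAC1 and TXNIP among them.

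Each compound's own change is given beside the others. The 3 changes share the untreated arrays. Called genes were also picked by a fit that counts spread between compounds as error, which favours genes with like changes. The likeness of the 3 changes is therefore no independent evidence. Among genes called higher the median change was 0.47 after AB61, 0.47 after tubercidin and 0.48 after actinomycin D. Among genes called lower it was -0.57, -0.50 and -0.55 in the same order. FOSL2 changed by -1.40 after AB61, -1.40 after tubercidin and -1.37 after actinomycin D. The difference between AB61 and tubercidin in FOSL2 was 0.00, with a 95% interval of -0.38 to 0.38. NR4A1 changed by -1.79, -1.87 and -1.85 in that order, and SERPINB8 by 0.89, 0.96 and 0.88. For SERPINB8 the difference between AB61 and tubercidin was -0.07, with an interval of -0.37 to 0.23. For CHRNA6 the changes were 0.96, 1.11 and 1.21, and AB61 minus actinomycin D was -0.25 (interval -0.51 to 0.01).

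**Figure D5:**
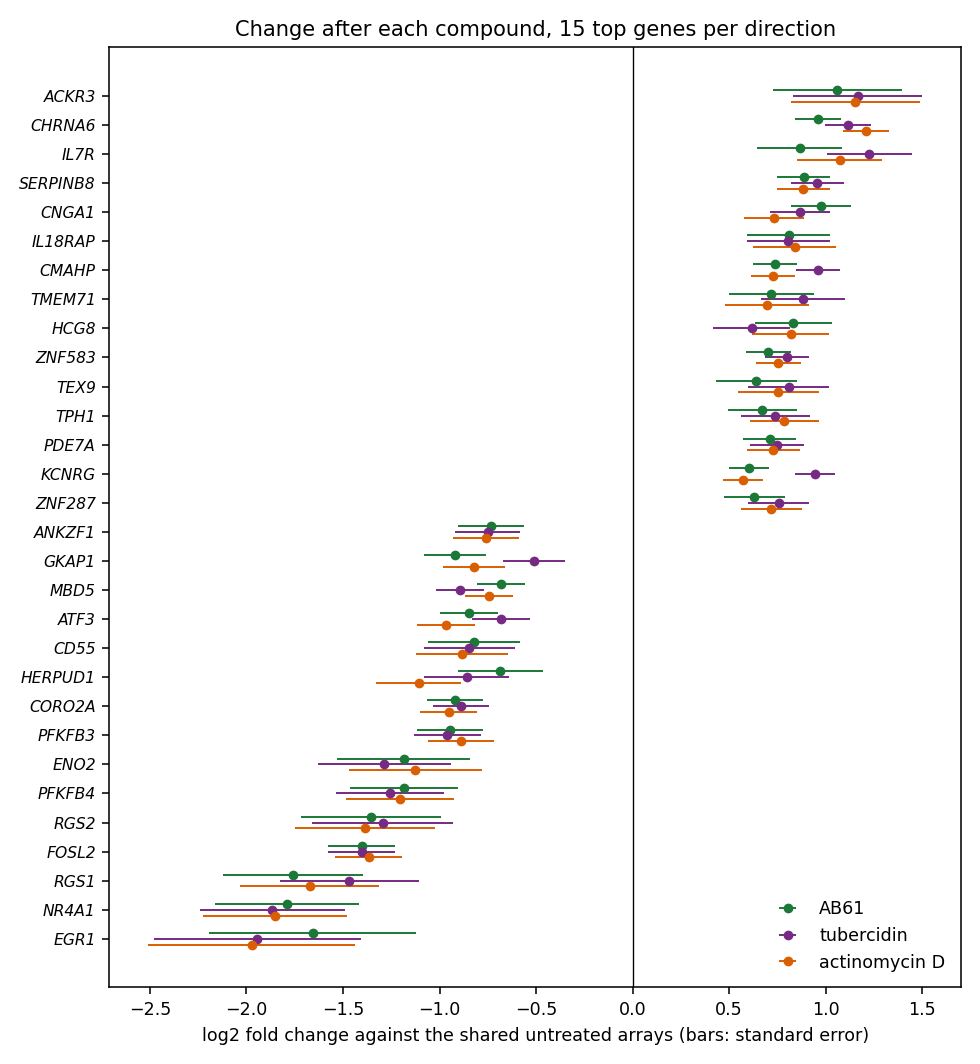
Log2 fold change (x axis) of each compound against the shared untreated arrays, with standard errors as bars, for the 15 largest non-overlapping genes in each direction (y axis). The 3 points of a gene lie close together for most genes, as for FOSL2 at -1.40, -1.40 and -1.37, and farther apart for GKAP1 and KCNRG. The genes were picked by the pooled fit and for lack of overlap, which favours close points, so nothing is read from their closeness.

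The widest spread across compounds in a called gene was 0.56, in DDIT4, which changed by -1.30 after AB61, -0.74 after tubercidin and -0.86 after actinomycin D. KCNRG, which interferes with potassium channel assembly, changed by 0.60, 0.94 and 0.57, and AB61 minus tubercidin was -0.34 (95% interval -0.57 to -0.12), which did not pass after adjustment over all genes and pairs. The intervals are for single genes and are not adjusted for their number. In this fit, in which arrays had equal weight, no gene passed the test between AB61 and tubercidin, which lacks the thienyl group.

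The genes with the lowest p among compounds were RPS13, GCNA, CHAC1, LINC02893 and RRH, none of which was called in the pooled comparison. CHAC1, an ATF4 target that breaks down glutathione, changed by -1.05 after AB61, -0.20 after tubercidin and -1.37 after actinomycin D. On the arrays its levels were 6.89, 7.27 and 7.31 after AB61, 7.99, 7.83 and 8.22 after tubercidin, 6.77, 6.62 and 7.14 after actinomycin D, and 7.83, 8.14 and 8.66 in untreated cultures. The tubercidin arrays lay above all 6 arrays of the other compounds and overlapped the untreated ones. AB61 minus tubercidin was -0.86 (interval -1.30 to -0.42), and limma's F test over the compounds gave an adjusted p of 0.869. TXNIP, an arrestin-domain protein that binds thioredoxin, was named as a regulator and changed by -0.45, 0.52 and 0.15 in the same order of compounds. AB61 minus tubercidin for TXNIP was -0.97 (interval -1.41 to -0.54), with an unadjusted F p of 0.00115 and an adjusted p of 1.00.

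The pooled count depended on which compounds were in it. With the AB61 arrays left out 173 genes were called, with the tubercidin arrays left out 100, and with the actinomycin D arrays left out 32. All 32 were among the 296, as were 148 of the 173 and 93 of the 100. The median standard deviation of a gene within a group was 0.19 for AB61, 0.13 for tubercidin, 0.11 for actinomycin D and 0.13 for untreated arrays. Among genes called lower, 63.6% had a larger standard deviation on the 3 untreated than on the 9 treated arrays, as against 47.9% of genes called higher and 36.7% of all genes.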

How the data were processed

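RNA of 12 CCRF-CEM cultures was measured on whole-transcript arrays, 1 array each. Levels were deposited as RMA values on a log2 scale, and the submitters' processing notes name RMA, oligo and limma as the authors' tools. For these tools a version is not given in the sources used here. Tables of log2 fold changes and p-values per compound against untreated were also deposited by the authors. Their log2 fold changes differed from the group mean differences here by under 5e-06, and they enter no result. Of 22011 probe sets, 14432 had 1 symbol in GEO's platform annotation, 2408 had several and 5171 were not listed there. The brightest probe set by mean over the 12 arrays stood for each of 14232 genes, of which 197 had several. No filter on dim genes was set. Levels were fitted with limma 3.58.1 (R 4.3.3; two-sided moderated test, eBayes without trend or robust settings, Benjamini-Hochberg over all genes, threshold 0.05). The 9 treated and the 3 untreated arrays were 2 groups; the 3 compounds were compared in a 4-group model with an F test and 3 direct contrasts. Scripts were tested on simulated data. Figures used matplotlib 3.10.9 under Python 3.11.15. Only 12 arrays, 3 of them untreated, limit the precision.

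The members and the gene lists were chosen with earlier results of these data known. The genes named were, for each direction, the 15 largest called changes without overlap, then up to 4 called members of each of 40 lists (or else the member with the largest change), 24 regulators, and the 5 genes with the lowest F test p. For the pooled comparison, the replicate numbers in the titles were read as pairing samples, but the main fit did not use this pairing. The main calls and adjusted p-values are therefore unpaired, and the replicate block was run as an alternative. The mean deviations of same-numbered treated arrays correlated with those of the untreated array at 0.20 to 0.45 across genes, all 3 above 0.1. Alternatives were the 4-group model, the replicate block, 4 rescalings, 2 filters on dim genes, other variance models, other choices of probe set, and arrays or compounds left out. Those added after seeing the data were array weights by limma's gene-by-gene method, compound as a random block and the Bonferroni adjustment. One gene named by the rule is not reported here.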

Additional observations from a re-analysis of the deposited data

Results flagged for a closer look

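RUNX3 had 1 array apart from the rest among the 9 treated arrays. Its level was 9.18524 on tubercidin replicate 1, the lowest, and 9.42632 on the next array, while the highest treated array was at 9.56797. That gap was 0.630 of the group's range, more than Dixon's 95% limit for 9 arrays allows. The same check was made for the 9 treated arrays in 98 named genes, and RUNX3 was the only one past the limit.

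Probe sets that do not stand for a single gene symbol were outside the comparison. There were 7579 of them, and when all 22011 probe sets were tested together, 29 of these were called (14 higher and 15 lower in treated cultures), of 170 in all. Probe set 3181976 averaged 6.60 on the treated and 9.30 on the untreated arrays (log2 change -2.70, limma adjusted p = 0.00463), and probe set 2582124 averaged 6.17 on the treated and 8.53 on the untreated arrays (-2.35, adjusted p = 0.0269). On the higher side, probe set 3208355 averaged 7.33 on the treated and 6.36 on the untreated arrays (0.97, adjusted p = 0.0253), and probe set 3362785 averaged 9.95 on the treated and 8.99 on the untreated arrays (0.96, adjusted p = 0.0156). Their genes are not named here.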

How the results depend on the processing

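Counts are of genes called, then higher and lower, beside 296, 167 and 129 with all arrays. The replicate block, which pairs same-numbered cultures, gave 729, 404 and 325 as a fixed term and 634, 353 and 281 as a random one, and no call was lost. The 4-group model gave 149, 86 and 63. Centring on ribosomal protein genes gave 85, 67 and 18 with the median of all genes at 0.0791, and 78.8% of calls were higher, against 56.4%. Array weights gave 849, 450 and 399. All probe sets tested singly gave 138, 86 and 52. Leaving out AB61 gave 173 calls and 60 lower, leaving out tubercidin 100, 54 and 46, and leaving out actinomycin D 32, 18 and 14. Chosen after seeing the data were gene-by-gene array weights (716, 393 and 323), compound as a random block (1031, 564 and 467) and Bonferroni adjustment (12, 7 and 5). With 1 array left out at a time the counts ran from 27 to 435 called, 17 to 209 higher and 10 to 226 lower. Genes with all treated beyond all untreated arrays ran from 666 to 1267, beside 645, and leaving out an array cannot lower this count. Array weights gave 4416 genes in the F test and 6728 in the pairs, from weights whose estimate had not converged in the 4-group model, and 9 and 4 with the gene-by-gene method, beside 0. No called gene changed direction in any alternative that tested it, and named genes lost their call in 422 of their values. The cause of these differences was not tested. Only 3 untreated arrays, with no vehicle described, limit every value here.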

Other observations

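Genes of T cell signalling changed in both directions, and those given here were chosen after their values were seen. CBLB, a ubiquitin ligase that restrains T cell receptor signals, had levels of 8.49 to 9.06 with a median of 8.81 on treated arrays, against 8.07 to 8.28 on untreated arrays, and was higher by 0.60 (limma adjusted p = 0.0177). The phosphatase PTPN6, which also restrains receptor signals, went the other way. PTPN6 had levels of 7.63 to 8.25 with a median of 7.83 on treated arrays, against 8.56 to 8.64 on untreated arrays (log2 change -0.70, adjusted p = 0.0131). UBASH3A and UBASH3B, a pair of related proteins that dampen receptor signals, differed in direction, with changes of 0.37 (adjusted p = 0.0374) and -0.47 (adjusted p = 0.0162). The lipid phosphatase INPP5D changed by -0.40 (adjusted p = 0.0417), the adaptor SKAP1 by -0.51 (adjusted p = 0.0177) and the kinase TXK by -0.32 (adjusted p = 0.0245). Among surface proteins, CD44 and CD96 were higher by 0.44 (adjusted p = 0.0328) and 0.48 (adjusted p = 0.0353), and PLAUR, the urokinase receptor, changed by -0.69 (adjusted p = 0.0131).

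Further genes of defined roles were also chosen after their values were seen. MAT2A, which makes S-adenosylmethionine, had levels of 11.69 to 12.04 with a median of 11.87 on treated arrays, against 11.12 to 11.55 on untreated arrays, and was higher by 0.51 (limma adjusted p = 0.0199). NAB2, a corepressor of EGR factors, changed by -0.58 (adjusted p = 0.0176). Zinc transporter genes differed in direction, with SLC30A1 at -0.58 (adjusted p = 0.0340), SLC30A6 at 0.40 (adjusted p = 0.0329) and SLC30A7 at 0.47 (adjusted p = 0.0452). The ribosome biogenesis gene NOL9 was higher by 0.56 (adjusted p = 0.0107), and POLR3B, an RNA polymerase III subunit, by 0.52 (adjusted p = 0.0107). EFNB2, an ephrin ligand, changed by -0.72 (adjusted p = 0.00115), and FKBP4, a co-chaperone of steroid receptors, by -0.74 (adjusted p = 0.0263).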
